A study of Mus musculus with 6 samples.

Results

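The genes described here are the receptors of mouse heart for hormones, transmitters and lipid mediators, the heterotrimeric G protein subunits they couple to, the kinases that phosphorylate active receptors (Grk) and the regulators of G protein signalling (Rgs). They were chosen by symbol, from the stems of these family names. The rule found 87 genes, with 108 transcript rows, among 8969 protein-coding genes and 18382 genes in all, lncRNAs included. RNA was sequenced from hearts of male mice perfused on a Langendorff apparatus, in which an isolated heart is kept beating by perfusion through the aorta. In 3 Sham hearts the beat was not stopped. In 3 I/R (ischaemia-reperfusion) hearts the beat was stopped with cardioplegia solution for 30 min, and the heart was then reperfused for 1 h. Both groups share the isolation and the artificial perfusion, without blood or nerve supply, and the labels give no strain, age or genetic change. The treatment label of the Sham hearts gives no perfusion time, so the groups may differ in time on the apparatus. The labels call the libraries of a group biological replicates, and each library is called a heart below.

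These proteins form 1 signalling relay. A receptor that has bound its agonist makes the alpha subunit of a G protein take up GTP and part from its beta-gamma pair. Depending on the alpha subunit, cAMP then rises or falls, phospholipase C is switched on, or the cytoskeleton is acted on. Rgs proteins end the signal by speeding GTP hydrolysis on the alpha subunit, and Grk kinases end it at the receptor by preparing it for arrestin. In the heart, beta adrenergic receptors raise the rate and force of the beat and muscarinic receptors slow it, while alpha adrenergic, endothelin and angiotensin receptors constrict vessels and act on myocytes.

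No member differed between the groups after adjustment. The Rgs gene Rgs16 had the clearest separation, at 9.26 ± 3.40 FPKM in Sham hearts and 24.3 ± 4.67 FPKM in I/R hearts (mean ± SD, n = 3 each). The sphingosine phosphate receptor S1pr3 stood at 33.0 ± 4.73 and 44.0 ± 5.27 FPKM. Rgs5, Gna12, Gng11 and Ednra, which are among the most abundant members, had overlapping groups. Several genes of these families known from heart muscle, Adrb1, Chrm2, Adora1, Gnas, Gnaq and Grk5, had no row in the table analysed here, nor had Ednrb, Calcrl, Ramp3, S1pr1 and Ptger4.

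FPKM (fragments per kilobase of transcript and library size) is per length, so levels of listed transcripts can be set side by side. The value of a gene sums its listed transcripts, some of them short, and may differ from the level of the whole gene. The differences are fitted on log2(FPKM + 1) with limma for every gene whose mean reached 0.5 FPKM, and adjusted by Benjamini-Hochberg over the 12114 genes that did so. Of the 87 members, 49 passed that minimum and 38 did not. The 3 members nearest under it were Gna15 at 0.433, Gnb4 at 0.434 and Chrm4 at 0.445 FPKM, and the 3 nearest above it were Chrm3 at 0.510, Adra2c at 0.558 and Npy4r at 0.672 FPKM. Reads behind each value were recovered from the FPKM, and 20 members had at least 1000 reads over the 6 hearts while 18 had fewer than 10.

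By limma, 0 of 49 members had an adjusted p under 0.05. The same held for all genes tested, of which 0% were called, and for the protein-coding genes, of which 0% were called. At an unadjusted p under 0.05, 3 members were higher in I/R hearts (Rgs16, P2ry10b and S1pr3), or 6.12% of the 49, beside 3.43% of the 5041 protein-coding genes and 4.23% of all genes tested. In the other direction 3 members were lower (Ramp2, Gng2 and Grk2), again 6.12%, beside 1.67% and 4.21%. Groups did not overlap for 5 members higher in I/R hearts (Rgs16, P2ry10b, S1pr3, F2r and Avpr1a), which is 10.2% of the 49 beside 8.83% of the protein-coding genes and 7.1% of all genes. They did not overlap for 2 members lower in I/R hearts (Ramp2 and Gng2), which is 4.08% beside 5.12% and 6.57%. These counts are of FPKM as deposited and were not repeated after median scaling of the libraries. The nearest Sham and I/R hearts were close for F2r (43.9 and 44.9 FPKM) and Avpr1a (3.37 and 3.49 FPKM), so their separation may depend on the scaling. With limma's voom weights on the recovered reads, 0 members were called, 4 were higher and 3 lower at an unadjusted p under 0.05. The protein-coding background of that fit was 6.11% higher and 2.46% lower.

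The sign of the difference was positive for 37 of the 49 members, or 75.5%, beside 54.9% of the protein-coding genes and 49.7% of all genes. Median scaling of the libraries moved these to 31 members, 63.3%, beside 43.7%. With no minimum FPKM, 69% of all 87 members were positive beside 52.3%. The median difference of the tested members was 0.12 on the log2 scale, against 0.02 for protein-coding genes and -0.00219 for all genes.

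**Figure D1:**
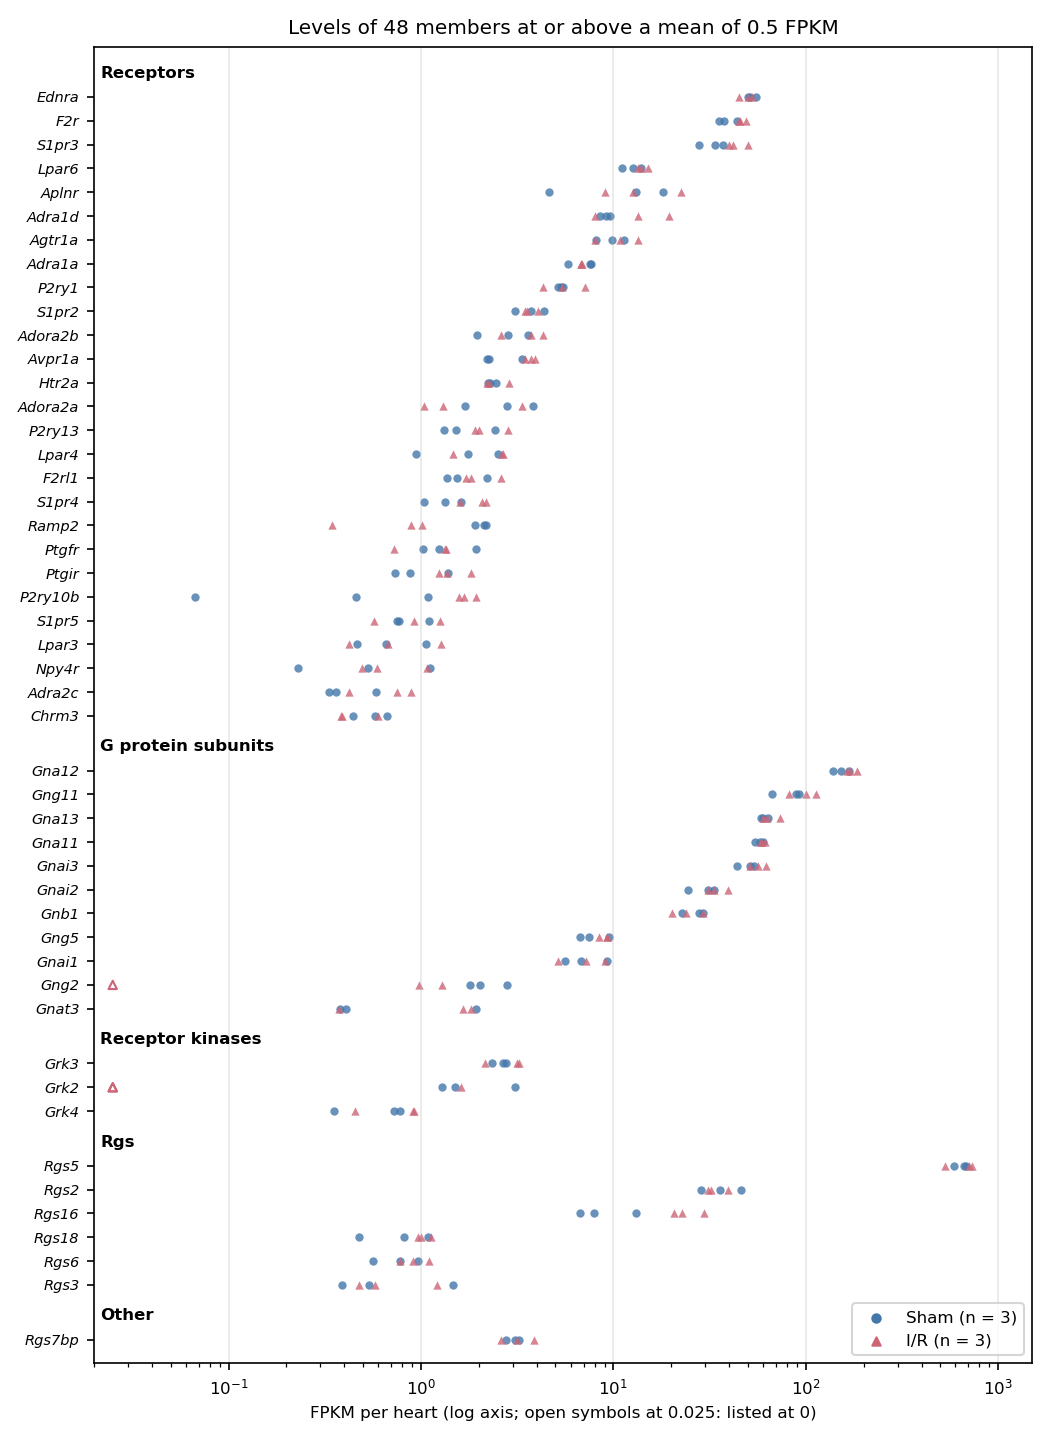
FPKM of each heart on a log axis for 48 of the 49 members with a mean of at least 0.5 FPKM, by role and in order of mean level. Circles are Sham and triangles I/R hearts, 3 each. Open triangles mark hearts in which Gng2 or Grk2 is listed at 0. The groups of Rgs16, S1pr3 and F2r do not overlap, while those of Rgs5, Gna11 and Ednra lie over each other.

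Levels were very uneven. Rgs genes held 47.75% of the members' summed FPKM, G protein subunits 34.23%, receptors 17.47% and receptor kinases 0.317%. Rgs5 alone held 44.0%. These shares are over the transcripts that have a row, which hold 36.85% to 39.92% of the read totals, and the genes without a row are not in them. The 43 receptor genes summed to 220.6 to 249.7 FPKM in Sham hearts and 268.5 to 288.4 FPKM in I/R hearts. The 22 G protein subunits summed to 453.1 to 498.6 and 511.5 to 543.2 FPKM. Neither pair of ranges overlaps as deposited. The receptor sum is weighted to its abundant genes. Means in Sham and I/R hearts were 52.1 and 49.2 FPKM for Ednra, 39.1 and 46.3 for F2r, and 33.0 and 44.0 for S1pr3. How often sums of other genes separate was not computed. With median scaling, applied to these sums after the data had been seen, the receptors ran from 231.6 to 254.1 and from 265.5 to 274.6 FPKM, still apart, while the G protein subunits, at 466.4 to 513.1 and 505.9 to 540.6 FPKM, overlapped. All listed protein-coding genes summed to 151706 to 158594 FPKM in Sham and 154742 to 167647 FPKM in I/R hearts as deposited. The 15 Rgs genes summed to 627.4 to 733.7 and 603.7 to 785.0 FPKM, which do overlap.

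Among the 43 receptors, 28 could be tested, of which 22 had a positive and 6 a negative difference. The median was 0.17. The adrenergic receptors bind noradrenaline and adrenaline, and 4 of 6 could be tested. Adra1d, an alpha1 receptor of vascular smooth muscle, read 9.15, 9.61 and 8.52 FPKM in Sham and 19.5, 13.4 and 8.07 FPKM in I/R hearts. The Sham hearts were close to each other, I/R hearts 1 and 2 were above them, and I/R heart 3 was below them. The difference was 0.46 ± 0.29 (limma, adjusted p = 0.731), and it was 0.18 without I/R heart 1 and 0.77 without I/R heart 3. Adra1a, the alpha1 receptor of myocytes, was at 7.0 ± 1.04 and 6.83 ± 0.0459 FPKM (SD, n = 3). The alpha2 receptor Adra2c was near the minimum, with 40 reads in the Sham and 57 in the I/R hearts. Adra1b was under it at a mean of 0.174 FPKM and 27 reads.

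Of the receptors for vasoactive peptides, Ednra was the most abundant, and it led all receptors that had a row. It binds endothelin and constricts vessels. Its Sham hearts read 51.1, 55.1 and 50.3 FPKM and its I/R hearts 50.1, 52.5 and 45.0 FPKM, with a difference of -0.08 ± 0.11. The groups overlap, on 9444 reads over the 6 hearts. Agtr1a, the angiotensin II receptor, was listed through 3 transcripts of at most 445 bases and 118 reads in each group. It read 9.76 ± 1.64 and 10.8 ± 2.68 FPKM, and the groups overlap.

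Aplnr, the apelin receptor, an endothelial gene, varied more between hearts of a group than between groups. It was 18.2, 13.0 and 4.64 FPKM in Sham and 22.4, 12.6 and 9.08 FPKM in I/R hearts. The difference was 0.36 ± 0.50, and without Sham heart 3 it was -0.15. Avpr1a, a vasopressin receptor, was listed at 2.194, 2.25 and 3.37 FPKM in Sham and at 3.90, 3.75 and 3.49 FPKM in I/R hearts. All 3 I/R hearts were above all 3 Sham hearts, though I/R heart 3 and Sham heart 3 were close. The difference was 0.40 ± 0.20 (limma, adjusted p = 0.647), on 181 and 242 reads.

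Ramp2 makes the calcitonin-receptor-like protein into a receptor for adrenomedullin. Only a 379-base transcript of it was listed, read 8, 7 and 6 times in Sham hearts and 1, 3 and 3 times in I/R hearts. Those reads gave 2.13, 1.92 and 2.189 FPKM against 0.343, 0.890 and 1.01 FPKM, so every I/R heart was below every Sham heart. The difference was -0.84 ± 0.23 (limma, unadjusted p = 0.00791, adjusted p = 0.431), and -1.36 by voom. Ramp2 overlaps Vps25 on the same strand, which had 197 reads and a difference of -0.25 ± 0.21. Ramp1 had 5 reads in all and was not tested.

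The sphingosine phosphate receptors bind a lipid carried in plasma, and all 4 listed genes could be tested. S1pr3 (chr13:51408639-51422797, plus strand) was 33.9, 37.3 and 27.9 FPKM in Sham and 49.97, 42.1 and 40.0 FPKM in I/R hearts, on 4004 and 4783 reads. Every I/R heart was above every Sham heart, and the nearest were I/R heart 3 and Sham heart 2. The difference was 0.41 ± 0.15 (limma, unadjusted p = 0.0325, adjusted p = 0.546) and lay between 0.29 and 0.50 when any 1 heart was left out. The unadjusted p of S1pr3 was not under 0.05 with no variance trend, or without I/R heart 1, I/R heart 2, Sham heart 1 or Sham heart 3. S1pr4, a receptor of blood cells, had 1.33 ± 0.283 and 1.96 ± 0.311 FPKM (0.35 ± 0.20), and its groups overlap. S1pr2 (0.000965 ± 0.19) and S1pr5 (0.02 ± 0.22) differed by less than their errors.

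Thrombin receptor F2r, which responds to cleavage of its own extracellular end, was 35.5, 43.9 and 37.7 FPKM in Sham and 44.9, 45.3 and 48.7 FPKM in I/R hearts. The groups did not overlap, but Sham heart 2 and I/R heart 1 were close. The difference was 0.24 ± 0.12 (limma, unadjusted p = 0.0836, adjusted p = 0.635), and by voom the unadjusted p was 0.0343. Its chromosomal neighbour F2rl1, 76.6 kb away and activated by trypsin-like proteases, was at 1.70 ± 0.437 and 2.05 ± 0.487 FPKM.

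The adenosine receptors Adora2a and Adora2b both raise cAMP. Adora2a was 3.84, 1.69 and 2.80 FPKM in Sham and 3.36, 1.04 and 1.31 FPKM in I/R hearts, on 39 and 23 reads from transcripts of at most 601 bases, and the groups overlap. Adora2b was 2.85, 1.97 and 3.60 FPKM in Sham and 2.61, 4.33 and 3.74 FPKM in I/R hearts, also overlapping. Their differences were -0.42 ± 0.36 and 0.27 ± 0.25, with adjusted p of 0.811 and 0.837 by limma.

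The 3 tested receptors with a P2Y symbol, a family named for nucleotide receptors, had positive differences. P2ry10b had the largest among all receptors, 0.88 ± 0.28 (limma, unadjusted p = 0.0174, adjusted p = 0.492), from 14 reads in Sham and 27 in I/R hearts. By voom its unadjusted p was 0.109, and with a pseudocount of 0.1 the difference was 1.92. It was 0.0672, 0.458 and 1.09 FPKM in Sham and 1.57, 1.93 and 1.67 FPKM in I/R hearts, without overlap. Most of that level, 88.31%, came from a 414-base transcript with 20 reads in all. P2ry1, a receptor for ADP, was at 5.34 ± 0.177 and 5.62 ± 1.45 FPKM, with overlap.

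The other tested receptors had overlapping groups. Lpar6, a lysophosphatidic acid receptor, was at 12.6 ± 1.43 and 14.2 ± 0.897 FPKM. The prostacyclin receptor Ptgir was 0.998 ± 0.340 and 1.47 ± 0.302 FPKM and the prostaglandin F receptor Ptgfr 1.4 ± 0.481 and 1.14 ± 0.357 FPKM. The serotonin receptor Htr2a was 2.33 ± 0.121 and 2.44 ± 0.374 FPKM. Chrm3 was the only muscarinic receptor above the minimum, at 0.562 ± 0.114 and 0.457 ± 0.124 FPKM. The neurotransmitter peptide Npy, which matches the symbol rule although it is a ligand, had 2 reads in all. The 15 receptors under the minimum had means from 0.0174 FPKM for Htr5b to 0.445 FPKM for Chrm4.

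Of 22 G protein subunits, 11 could be tested, 8 with a positive and 3 with a negative difference. The most abundant subunit with a row was the alpha subunit Gna12. It read 138.2, 152.3 and 167.1 FPKM in Sham and 183.9, 162.9 and 168.9 FPKM in I/R hearts. Sham heart 3 lay within the I/R range, and the difference was 0.17 ± 0.10 (limma, adjusted p = 0.714). Gna13, its close relative, was at 60.4 ± 2.58 and 65.6 ± 6.99 FPKM.

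Gna11, which activates phospholipase C, was at 57.6 ± 2.72 and 59.6 ± 1.32 FPKM, a difference of 0.05 ± 0.10 that changed sign to -0.013 under median scaling. The inhibitory subunits Gnai3 (49.8 ± 5.14 and 56.7 ± 5.39 FPKM) and Gnai2 (29.7 ± 4.69 and 34.7 ± 4.45 FPKM) had differences of 0.18 ± 0.13 and 0.22 ± 0.16. None of these groups was apart. Of the Gnai2 level, 58.35% came from a 421-base transcript and 13.74% from a 2215-base transcript. Gnai2 shares 1764 bases with the lncRNA Gm19721 on the same strand, which had 3056 reads beside 1191 for Gnai2.

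Of the beta and gamma subunits, Gng11, a gamma subunit of endothelium, was the second most abundant subunit gene with a row. It was 88.7, 92.3 and 66.9 FPKM in Sham and 112.5, 99.8 and 81.9 FPKM in I/R hearts, with a difference of 0.25 ± 0.17 and overlapping groups. Gnb1, a beta subunit, was at 26.7 ± 3.39 and 24.5 ± 4.49 FPKM, and 95.53% of this was a 500-base transcript. Gng2 was read 31 times in Sham and 10 times in I/R hearts, at 2.02, 2.79 and 1.80 FPKM against 0, 0.983 and 1.28 FPKM. Its difference was -0.94 ± 0.35 (limma, unadjusted p = 0.0301, adjusted p = 0.540). It was -1.91 by voom, -0.57 for the most abundant transcript alone, and between -1.17 and -0.58 when any 1 heart was left out. The unadjusted p of Gng2 was not under 0.05 for that transcript alone or with a pseudocount of 0.1. The same held without I/R heart 1, Sham heart 1 or Sham heart 2. The tested subunits Gnai1, Gng5 and Gnat3, at means of 7.16, 8.45 and 1.09 FPKM, had overlapping groups. The 11 subunits under the minimum had means from 0.0388 FPKM for Gngt2 to 0.434 FPKM for Gnb4.

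The listed transcripts of the receptor kinases were at low levels. Grk2, the main kinase of beta adrenergic receptors in the heart, was listed through a 403-base transcript only, with 20 reads in Sham and 5 in I/R hearts. All 5 were in I/R heart 1, and the other two I/R hearts were listed at 0. In FPKM this was 1.504, 1.29 and 3.09 against 1.61, 0 and 0, so the groups overlap. The difference was -1.05 ± 0.44 (limma, unadjusted p = 0.0489, adjusted p = 0.591). It was -2.51 by voom, -2.90 with a pseudocount of 0.1, and -1.52 to -0.80 when any 1 heart was left out. Its unadjusted p was not under 0.05 with the replicate number as a block, with no variance trend, with a filter at 1 FPKM, or when any 1 heart other than I/R heart 1 was left out. Grk3, its close relative, was at 2.60 ± 0.227 and 2.84 ± 0.603 FPKM with overlap, and Grk4 had 112 reads. Grk6 was under the minimum, with 5 reads.

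**Figure D2:**
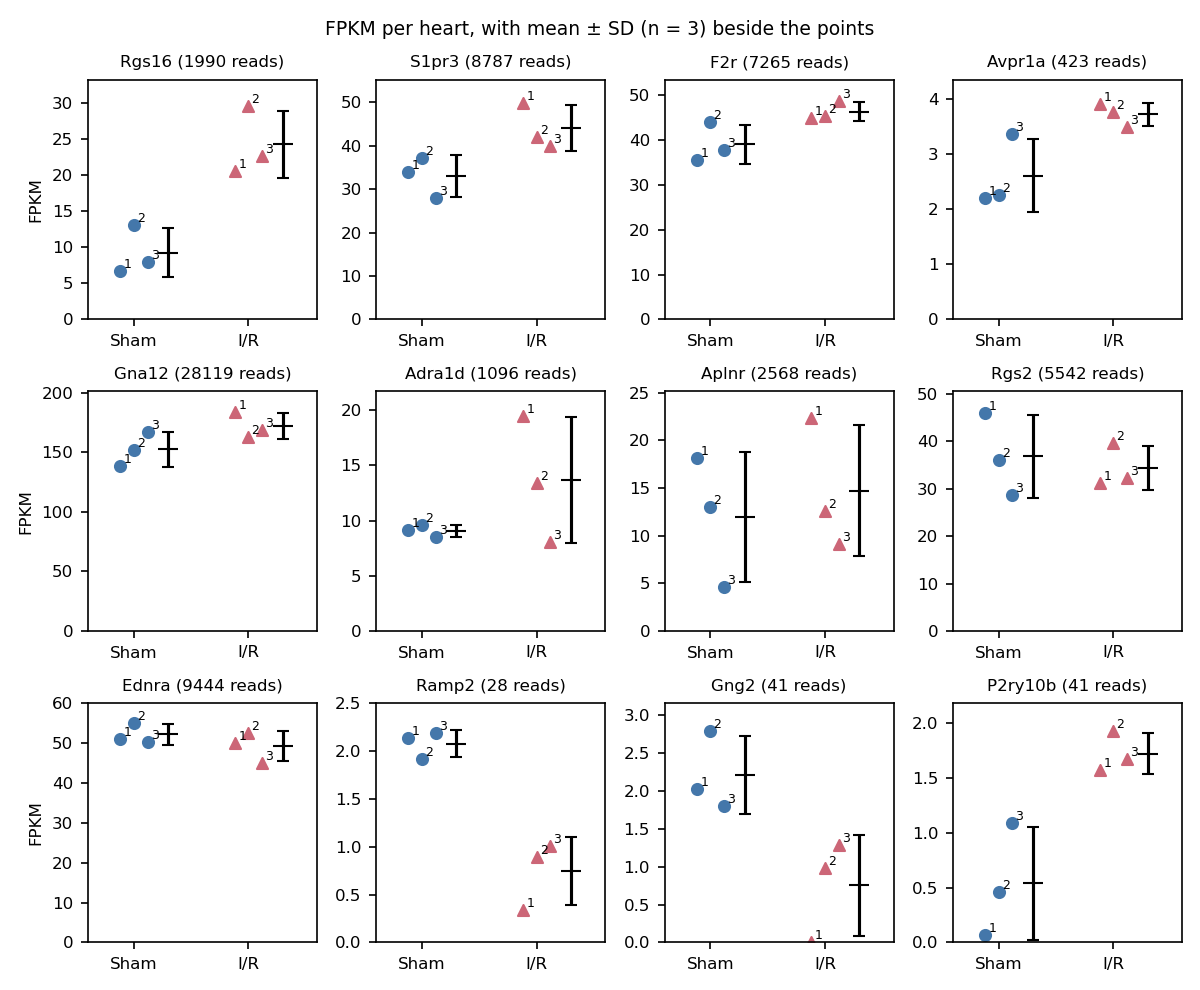
FPKM of 12 members in each heart, numbered by replicate, with the mean and SD of 3 hearts beside the points. The axes start at 0 and differ between panels. Rgs16, S1pr3, F2r, Avpr1a and P2ry10b have all I/R hearts above all Sham hearts, Ramp2 and Gng2 all below, and the rest overlap. Ramp2, Gng2 and P2ry10b rest on 28, 41 and 41 reads.

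Of 15 Rgs genes, 6 could be tested. Rgs5, known from pericytes and vascular smooth muscle, was the most abundant member. It was 666.6, 681.4 and 587.7 FPKM in Sham and 728.5, 531.1 and 705.5 FPKM in I/R hearts. The highest and the lowest heart were both I/R hearts, and the difference was 0.01 ± 0.14. Its sign changed with the scaling, to -0.05 under median scaling and -0.04 under quantile normalization. Rgs5 also had a 723-base transcript, which was fitted apart after the data had been seen. It was 9.22, 6.17 and 19.5 FPKM in Sham and 3.60, 5.91 and 6.18 FPKM in I/R hearts, with a difference of -0.91 ± 0.40 (limma, unadjusted p = 0.0596).

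Rgs2, which acts on the alpha subunits that switch on phospholipase C, was 45.9, 36.0 and 28.6 FPKM in Sham and 31.1, 39.6 and 32.2 FPKM in I/R hearts. The I/R hearts all lay inside the Sham range, and the difference was -0.08 ± 0.19.

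Rgs16 (ENSMUSG00000026475, chr1:153740349-153745468, plus strand) acts on alpha subunits of the inhibitory and phospholipase C families and is known as an inducible gene. It was 6.74, 13.1 and 7.92 FPKM in Sham hearts, from 156, 296 and 134 reads. In I/R hearts it was 20.7, 29.6 and 22.7 FPKM, from 372, 616 and 416 reads. The lowest I/R heart was above the highest Sham heart, and heart 2 was the highest of both groups. The ratio of means was 2.63. The difference was 1.34 ± 0.26 (limma, unadjusted p = 0.00142, adjusted p = 0.386), higher in 3 of 3 I/R hearts. By voom it was 1.44 ± 0.24, and it stayed between 1.16 and 1.59 when any 1 heart was left out.

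The remaining Rgs genes were low. Rgs18, Rgs6 and Rgs3 were tested at means of 0.913, 0.850 and 0.777 FPKM, with overlapping groups. Rgs4 lies 45.7 kb from Rgs5 and was listed at 0.0871 FPKM, where Rgs5 had 650.2. Among the listed members, Rgs1 and Rgs18 follow Rgs2 on chromosome 1 at gaps of 238.1 and 503.4 kb. Their means were 0.0330 and 0.913 FPKM beside 35.6 for Rgs2. These neighbours among the listed genes thus differed widely in the level of their listed transcripts. Rgs1 was read 0 times in Sham hearts and 6 times in I/R hearts, and Rgs20 0 and 4 times, too few for a comparison. The 9 Rgs genes under the minimum had means of at most 0.243 FPKM. The symbol rule also took in Rgs7bp, a protein that binds Rgs proteins, at 3.03 ± 0.23 and 3.20 ± 0.631 FPKM, and Gnb1l, which is named for its likeness to beta subunits, at 21 reads.

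**Figure D3:**
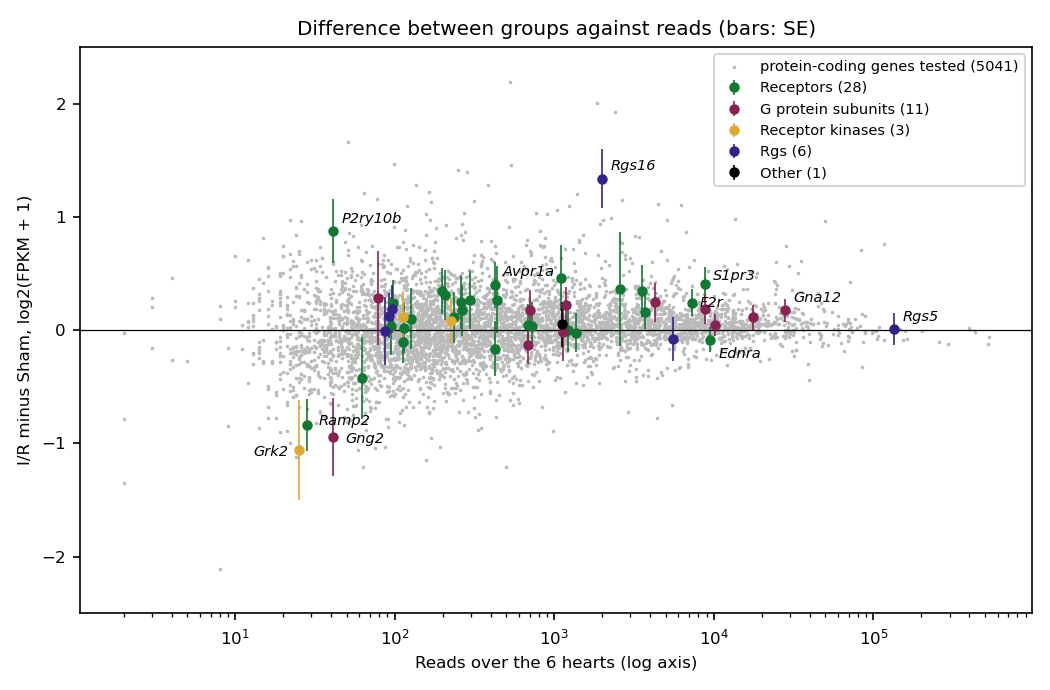
Difference between the groups (I/R minus Sham, log2(FPKM + 1), with SE) against the reads of each gene over the 6 hearts on a log axis. Grey points are the 5041 protein-coding genes tested and coloured points the 49 members by role. Rgs16 is the member with both a large difference and over 1000 reads, and Ramp2, Gng2, Grk2 and P2ry10b all have under 50 reads.

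The 4 members tested on under 50 reads, Ramp2, Gng2, Grk2 and P2ry10b, had a median absolute difference of 0.91, beside 0.23 for the 520 protein-coding genes with so few reads. Of those 520 genes, 5.96% had an absolute difference over 0.7. The 25 members with 50 to under 1000 reads had a median of 0.16, beside 0.17 for their class. The 20 members with at least 1000 reads had 0.17, beside 0.09. Rgs16 was the single member outside the lowest class with an absolute difference over 0.7.

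The stretches before the start of 4 members are printed to set Rgs16 and S1pr3, the members with over 1000 reads at an unadjusted p under 0.05, beside a relative of each, Rgs2 and S1pr2, picked because their windows hold the element searched for. Each is the 250 bases before the start, from RefSeq (GRCm38.p6), 5′ to 3′ on the gene's strand, at chr1:153740103-153740352 for Rgs16, chr1:144004150-144004399 for Rgs2, chr13:51408368-51408617 for S1pr3 and chr9:20976794-20977043 for S1pr2. Capitals mark the cAMP response element TGACGTCA and its shorter form TGACG, searched on both strands.
Rgs16: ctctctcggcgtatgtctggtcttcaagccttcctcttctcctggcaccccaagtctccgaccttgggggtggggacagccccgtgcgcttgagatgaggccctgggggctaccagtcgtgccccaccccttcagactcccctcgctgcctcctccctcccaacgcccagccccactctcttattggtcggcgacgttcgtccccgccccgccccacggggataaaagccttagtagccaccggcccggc
Rgs2: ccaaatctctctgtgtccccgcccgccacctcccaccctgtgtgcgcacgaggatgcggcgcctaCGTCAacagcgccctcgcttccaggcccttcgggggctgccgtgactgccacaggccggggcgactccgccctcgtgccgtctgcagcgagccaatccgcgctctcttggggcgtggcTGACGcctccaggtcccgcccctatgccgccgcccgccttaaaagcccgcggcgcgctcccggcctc
S1pr3: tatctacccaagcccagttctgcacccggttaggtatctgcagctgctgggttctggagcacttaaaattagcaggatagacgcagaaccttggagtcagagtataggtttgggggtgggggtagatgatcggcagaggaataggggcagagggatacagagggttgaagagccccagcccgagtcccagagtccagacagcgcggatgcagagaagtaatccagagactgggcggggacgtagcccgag
S1pr2: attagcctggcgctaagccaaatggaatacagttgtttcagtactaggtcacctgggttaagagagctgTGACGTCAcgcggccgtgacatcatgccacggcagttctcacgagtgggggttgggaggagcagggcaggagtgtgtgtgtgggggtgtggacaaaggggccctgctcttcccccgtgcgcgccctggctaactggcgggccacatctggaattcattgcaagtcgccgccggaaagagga
The windows of Rgs16 and S1pr3 held neither form. Rgs2 held the shorter form at 2 places, starting 185 and 67 bases before the start, and S1pr2 held the full element 181 bases before it. The full element contains TGACG on each strand, so a match to it counts for both. Other tested relatives with overlapping groups, Rgs3, Rgs5, Rgs6, S1pr4 and S1pr5, held neither form, as Rgs16 and S1pr3 did not.

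Of the 66 members with a promoter entry, 36 were tested. A gene with several entries counted once if any of them matched. The full element was found in 1 tested member, 2.8%, beside 2.2% of 17492 protein-coding genes with an entry. The shorter form was in 6, or 16.7%, beside 22.6%. The TATA sequence TATAAA was in 4, or 11.1%, beside 13.7%. A match is a match of letters and says nothing of binding.

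Several members share their locus with a lncRNA on the other strand, and no source used here says whether counting used the strand, so reads of such a pair cannot be told apart. In all, 22 members overlap a listed lncRNA. The lncRNA Gm28513 overlaps Rgs16 by 1917 bases. It was 18.7, 21.1 and 25.8 FPKM in Sham and 39.1, 60.9 and 60.4 FPKM in I/R hearts, with a difference of 1.24 ± 0.21 (limma, unadjusted p = 0.000681). Its groups were apart, as were those of Rgs16.

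Gm32834, opposite S1pr3, was 72.7, 86.8 and 60.3 FPKM in Sham and 113.1, 95.2 and 96.8 FPKM in I/R hearts, a difference of 0.48 ± 0.15 that is near the 0.41 of S1pr3. Gm14285, opposite Adra1d, was 48.1, 46.6 and 46.8 FPKM in Sham and 114.1, 73.9 and 32.5 FPKM in I/R hearts. As for Adra1d, I/R hearts 1 and 2 were above the Sham hearts and I/R heart 3 below them. The lncRNA 4933431K23Rik, opposite Ednra, differed by -0.07 ± 0.12 and Ednra by -0.08. Gm11696, opposite Gna13, differed by 0.47 ± 0.12 where Gna13 differed by 0.11 ± 0.11. FPKM of lncRNA and of protein-coding rows were computed on different read totals, so levels are not compared within a pair.

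**Figure D4:**
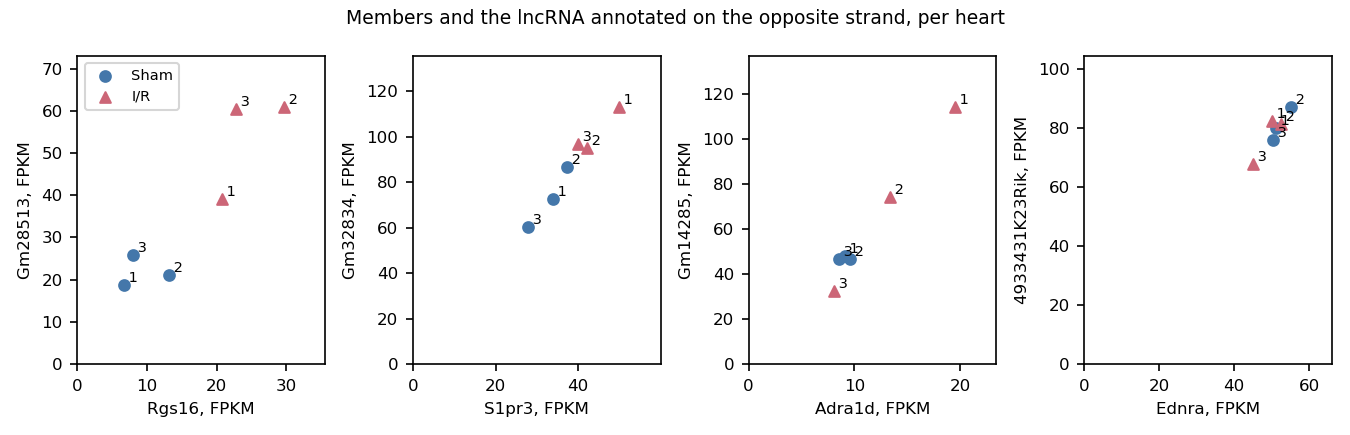
FPKM of 4 members (x axis) and of the lncRNA annotated on the opposite strand (y axis) in each heart, numbered by replicate, with both axes from 0. For Rgs16 and S1pr3 the I/R hearts lie above the Sham hearts on both axes. For Adra1d, I/R heart 3 lies below the Sham hearts on both, and for Ednra the groups mix.

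Genes around the receptors were read from lists of the pathway, and 0 passed the adjusted threshold in any list. Of 42 listed ligands and synthesising enzymes, 25 had a row and 13 could be tested, 11 of them with a positive difference, at a median of 0.12. Adm, the peptide adrenomedullin, a ligand of the receptor that Ramp2 helps to form, was 9.37, 10.2 and 10.9 FPKM in Sham and 17.4, 14.2 and 14.3 FPKM in I/R hearts. Those groups were apart, at 0.54 ± 0.15 (limma, unadjusted p = 0.00970, adjusted p = 0.450). Ada, which breaks down adenosine, was 2.20 ± 0.197 and 3.45 ± 0.713 FPKM, without overlap. Ptgs2, a prostaglandin synthase, was 6.85, 22.4 and 14.6 FPKM in Sham and 13.0, 43.7 and 45.1 FPKM in I/R hearts, with overlap.

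Of the 40 genes of cAMP synthesis, breakdown and protein kinase A, 16 could be tested, 10 positive and 6 negative, at a median of 0.08, and 0 reached an unadjusted p under 0.05. Pde4b, which breaks down cAMP, was 4.87, 6.48 and 3.45 FPKM in Sham and 7.41, 7.07 and 7.59 FPKM in I/R hearts, without overlap (0.53 ± 0.23). Pkia, an inhibitor of protein kinase A, was at 174.8 ± 12.9 and 199.5 ± 15.8 FPKM, and the regulatory subunit Prkar1a was at 15.1 ± 0.923 and 19.5 ± 4.62 FPKM.

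Of 22 genes of the CREB and cAMP response, its transcription factors and coactivators among them, 8 had a row. Only Areg, Pde4b and Pde4d could be tested. Pde4b and Pde4d are also on the list of cAMP genes above, so the 2 lists are not separate results. All of these differences were positive, at a median of 0.53, beside 54.9% positive among the protein-coding genes. With no minimum FPKM the median was 0.16. Areg, an epidermal growth factor receptor ligand, was read 5 times in Sham hearts and 34 times in I/R hearts, at 0.170 ± 0.149 and 1.153 ± 0.133 FPKM (0.89 ± 0.20, limma, unadjusted p = 0.00290, adjusted p = 0.386). It passed the minimum through its I/R level. Pde4d was at 2.35 ± 0.490 and 3.17 ± 0.470 FPKM.

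Of 14 arrestins and other receptor regulators, 6 could be tested, 2 positive and 4 negative, at a median of -0.12. Arrdc3, an arrestin-domain protein linked to beta adrenergic receptors, was 0.847, 0.326 and 0.580 FPKM in Sham and 2.66, 1.65 and 1.00 FPKM in I/R hearts, on 30 and 82 reads (0.78 ± 0.28, limma, unadjusted p = 0.0285, adjusted p = 0.528). Its relative Arrdc4 and the receptor scaffold Slc9a3r1 differed by -0.32 ± 0.26 and -0.20 ± 0.18. Of 25 genes that act downstream, among them those of phospholipase C and protein kinase C, 7 could be tested, at a median of 0.00813. Plce1, a phospholipase C, differed by 0.37 ± 0.19, Prkcb by -0.09 ± 0.18, and Rhoa by 0.05 ± 0.08, which became -0.01 under median scaling and under quantile normalization.

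Cell type markers moved with the groups in part. The 6 listed macrophage markers, of 11, summed to 921.7 to 1104.1 FPKM in Sham and 1145.0 to 1238.6 FPKM in I/R hearts. Their differences were positive in 6 of 6, from 0.00182 for Fcgr1 to 0.83 for Cd14, beside 54.9% of the protein-coding genes. Marker sums are of FPKM as deposited and were not repeated with median scaling, so narrow gaps between groups may depend on the scaling. The 10 listed fibroblast markers, of 11, summed to 368.4 to 454.8 and 481.4 to 524.3 FPKM, again without overlap. The 9 listed ventricular markers summed to 612.7 to 691.0 and 489.0 to 548.8 FPKM, lower in I/R hearts without overlap, with 7 of 9 differences negative. Among them Pln differed by -0.77 ± 0.17 and Myl2 by -0.33 ± 0.15. Ttn, which had the most reads of these markers, differed by -0.05 ± 0.11 and Ryr2 by 0.16 ± 0.18. Tnni3 was listed on 26 reads in Sham and 10 in I/R hearts, and the sum covers listed transcripts only. The endothelial (144.7 to 156.7 and 153.2 to 176.6 FPKM) and smooth muscle and pericyte ranges (217.5 to 467.7 and 340.5 to 480.7 FPKM) overlap. The 5 Schwann cell and neuron markers summed to at most 5.34 FPKM and the 4 platelet and blood markers to at most 7.76 FPKM in any heart. The 2 listed neutrophil markers summed to at most 1.54 FPKM and the 3 lymphocyte markers to at most 1.35 FPKM in any heart. No listed marker was at 0 in all 6 hearts. In whole hearts, more cells of a type and more RNA per cell cannot be told apart, and the part of cell type shares in the differences of Rgs16, S1pr3 and the other members was not tested.

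The 6 libraries were alike. Read totals behind the protein-coding FPKM ran from 7233171 to 9902397, of which the listed rows held 36.85% to 39.92%. Correlations of log2(FPKM + 1) between libraries were 0.973 to 0.981 within groups and 0.971 to 0.982 between them, so no library stood apart.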

How the data were processed

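Per the labels' protocols, poly(A) RNA of male mouse hearts was made into libraries with NEBNext Ultra II reagents. HISAT2 2.1.0, HTSeq 0.10.0, fastp 0.23.0 and bcl2fastq 2.19.1.403 are named in the submitters' processing notes, as are mm10, GRCm38 and GRCm39, without their roles. No source used here gives the annotation or the strand setting. The authors deposited FPKM per transcript for 6 libraries. After 40 repeated rows were dropped, 11745 protein-coding and 9413 lncRNA rows remained. FPKM were summed per gene symbol.

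Read numbers were recovered because FPKM of a row are whole multiples of 1 read over length and total. All rows came out whole within 0.001 read, with separate totals for protein-coding and lncRNA rows. The length of a row was chosen as the smallest found that makes its reads whole, so wholeness does not test the recovery. For rows with few reads the numbers may therefore be too low. Of the 87 spans, 83 overlap RefSeq GRCm38 by at least 50%, and coordinates are given as that build.

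Differences are I/R minus Sham on log2(FPKM + 1), fitted with limma 3.58.1 (R 4.3.3, variance trend, two-sided) over the 12114 genes whose mean reached 0.5 FPKM, with Benjamini-Hochberg adjustment. The fits and the read recovery were tested on simulated data. Alternatives were other pseudocounts, filters and scalings, array weights, voom on recovered reads and each library left out. The p-values cover the spread between these libraries only. The labels name no batch.

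Values are given for the 14 members with the smallest p, the 12 most abundant, a list of cardiac receptors and regulators, and the 3 genes with the smallest p per pathway list. Other members were named after their values were seen. The members and lists were chosen with earlier results of these data known. Related microRNA data were not analysed here. The result of 1 member is not reported here.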

Additional observations from a re-analysis of the deposited data

How the results depend on the processing

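The count of 0 members with an adjusted p under 0.05 held under all alternatives run. Rgs16 and Ramp2 had an unadjusted p under 0.05 in each of them. Leaving out each library in turn gave 1 to 4 members higher and 1 to 2 lower at an unadjusted p under 0.05. Both directions together, this was 6.12% to 12.2% of the members, beside 3.85% to 5.85% of the protein-coding genes. Without overlap, 7 to 12 were higher and 2 to 5 lower, where fewer hearts separate more easily. Without a minimum FPKM, 9 were higher without overlap, and with the most abundant transcript 1 was lower. The share of all genes without overlap was not computed under these settings, so these counts cannot be set against it. The members' median of 0.12 was 0.17 at a minimum of 1 FPKM, 0.0907 with median scaling, 0.0616 with no minimum, 0.17 with a pseudocount of 0.1, 0.17 with 0.5, 0.16 with voom, and 0.0848 to 0.153 with a library left out.

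For pathway medians, the CREB list gave 0.74 with the most abundant transcript, 0.16 with no minimum, 0.68 with voom and 0.44 to 0.71 with a library left out. The arrestin list gave -0.26 with the most abundant transcript, -0.23 with a pseudocount of 0.1 and -0.25 with voom. The cAMP list gave 0.01996 with median scaling and 0.0216 with no minimum. The ligand list gave 0.10 to 0.24 with a library left out, and the phospholipase C list -0.0513 with median scaling and 0.00176 to 0.0636 with a library left out. The cause of these shifts was not tested.

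Of 734 gene values over 40 named genes, 717 kept their direction, 17 were reversed and 33 genes were never reversed. Pde4b, on both the cAMP and the CREB list, entered the 734 and the 717 once for each list. The reversed values were those of Rgs5 (-0.0219 with array weights, -0.0516 with median scaling, -0.0448 with quantile normalization, -0.0729 to 0.155 with a library left out), Gna11 (-0.0127 with median scaling), Adra1a (0.0438 with the most abundant transcript, 0.0149 with voom, -0.135 to 0.0378 with a library left out) and Rhoa (-0.0147 with median scaling, -0.0113 with quantile normalization). With a library left out, Rgs2 ran from -0.246 to 0.0868, Agtr1a from -0.0447 to 0.291 and Aplnr from -0.15 to 0.73.

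Same-numbered libraries do not pair by the labels. Their deviations correlated at 0.247, 0.0468 and 0.0406. With the replicate number as a block, 0 members were called, and 3 were higher and 2 lower at an unadjusted p under 0.05. Together these were 10.2% of the members, beside 4.8% of the protein-coding genes.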
